A study of Rattus norvegicus with 9 samples.

Results

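The 10 genes described here are the glucocorticoid receptor, an enzyme that makes its ligand inside cells, and 8 genes that the receptor is known to induce. They were taken from the deposited gene table by symbol, and all 10 of 10 were found among 18964 genes. They comprise Nr3c1, Hsd11b1, Fkbp5, Tsc22d3, Sgk1, Zbtb16, Klf9, Klf15, Dusp1 and Errfi1, and all 10 passed the filter on low counts that left 14643 genes for testing. Poly(A) RNA came from the gastric lymphatic vessel, which drains lymph from the stomach wall, of wild-type male Sprague-Dawley rats, and was sequenced in 3 groups of 3 libraries. BXD rats were fasted for 12 h and spent 4 h singly in a pool filled to 15 cm and held at 22 °C, and 30 min later were gavaged with Banxia Xiexin decoction, a Chinese herbal decoction, at 10 ml per kg. Model rats had the same fast and water stress and the same volume of a control gavage, given as saline in one place of the labels and as distilled water in another. Control rats had the same fast and a gavage of distilled water, with no water stress. All 3 groups were thus fasted and gavaged, and rats weighed 180 to 220 g on purchase, with no age given in the labels. The study had 6 rats per group, and the labels tie no library to a rat, so p-values measure the spread between libraries, which may be technical in part. Values after ± are SDs over the 3 libraries of a group (n = 3) throughout.

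Glucocorticoids such as rat corticosterone are released from the adrenal cortex during stress and enter cells by diffusion. The receptor waits in the cytoplasm in a complex with heat shock proteins, moves to the nucleus when it binds hormone, and switches on genes through DNA elements built of short inverted repeats. Several of the induced genes damp the response itself or the inflammatory and growth factor signals in the same cell. Fasting, handling and the hour of day also move glucocorticoid levels in rats, and no hormone measurement was analysed here.

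For 8 of the 10 members the RefSeq promoter table on the GRCr8 build holds at least 1 window, which is 300 bases long and ends shortly after a gene's start, and these 8 members have 13 windows. In these, 5 motifs were searched on both strands. The core of the glucocorticoid receptor palindrome, ACANNNTGT, occurs in 6.86% of all 33469 windows, its arm AGAACA, which overlaps the core by 3 letters in a full palindrome, in 20.7%, the cyclic AMP element TGACGTCA in 1.83%, the E-box CACGTG, bound by clock factors, in 6.42% and the TATA box TATAAA in 14.2%. Among the members' windows the core was found in 1 of the 3 windows of Tsc22d3, the arm in 0 of 13, the TATA box in 4 of 13 (2 of Sgk1, 1 of Errfi1 and 1 of Tsc22d3), the cyclic AMP element in the window of Dusp1, and the E-box in those of Dusp1 and Klf15. The windows of Fkbp5 and Klf9, whose RNA was called higher in both stressed groups, are set beside those of Tsc22d3 and Dusp1, whose RNA was not. They are printed 5′ to 3′ on the strand of the gene, in lower case, with a match to the palindrome core or the cyclic AMP element in capitals. The core in Tsc22d3 lies 183 to 175 bases before that start, and the cyclic AMP element in Dusp1 lies 124 to 117 bases before its start. A match describes letters, and the absence of one says only that these letters are not in that window.
Fkbp5, chr20:6543506-6543805, minus strand: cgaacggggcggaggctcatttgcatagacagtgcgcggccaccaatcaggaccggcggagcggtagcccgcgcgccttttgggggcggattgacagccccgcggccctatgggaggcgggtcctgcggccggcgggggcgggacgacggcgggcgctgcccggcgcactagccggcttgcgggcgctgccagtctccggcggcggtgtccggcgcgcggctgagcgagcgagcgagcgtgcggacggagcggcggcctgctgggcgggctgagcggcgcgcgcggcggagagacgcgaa
Klf9, chr1:230126396-230126695, plus strand: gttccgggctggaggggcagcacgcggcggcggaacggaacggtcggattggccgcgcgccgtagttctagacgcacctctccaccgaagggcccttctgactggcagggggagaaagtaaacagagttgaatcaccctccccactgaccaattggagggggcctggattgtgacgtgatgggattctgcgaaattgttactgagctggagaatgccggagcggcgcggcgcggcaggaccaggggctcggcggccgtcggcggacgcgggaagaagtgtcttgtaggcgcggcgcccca
Tsc22d3, chrX:109065381-109065680, minus strand: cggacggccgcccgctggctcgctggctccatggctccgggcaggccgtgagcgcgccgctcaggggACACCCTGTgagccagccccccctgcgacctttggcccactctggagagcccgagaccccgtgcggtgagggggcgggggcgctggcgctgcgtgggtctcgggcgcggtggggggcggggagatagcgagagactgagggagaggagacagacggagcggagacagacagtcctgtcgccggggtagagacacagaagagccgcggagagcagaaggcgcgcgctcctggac
Dusp1, chr10:17184603-17184902, plus strand: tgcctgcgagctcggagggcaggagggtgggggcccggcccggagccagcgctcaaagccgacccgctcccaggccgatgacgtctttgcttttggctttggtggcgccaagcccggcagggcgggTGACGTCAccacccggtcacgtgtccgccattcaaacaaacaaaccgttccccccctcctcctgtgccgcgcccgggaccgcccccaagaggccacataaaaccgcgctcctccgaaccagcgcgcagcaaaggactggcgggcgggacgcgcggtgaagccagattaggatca

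Libraries held 12313813 to 13455705 estimated counts, and each member had at least 277 counts in every library. Markers of lymphatic endothelium were present in all 9 libraries, with 9 genes summing to 851 to 1868 CPM (counts scaled for library size and composition). Sums were larger for adipocytes, fibroblasts, smooth muscle and blood endothelium, and smaller for macrophages, neutrophils and lymphocytes. In particular, 15 adipocyte genes summed to 13828 to 19209 CPM in BXD, 19467 to 37201 CPM in model and 7638 to 8761 CPM in control. Against control, edgeR called 14 of these 15 higher in model and 10 higher in BXD, and 0 lower in either. Some libraries stood apart. The sum of 9 striated muscle genes was 7381 and 3940 CPM in BXD replicates 1 and 3 and 426 CPM in model replicate 2, against 34.7 to 71.4 CPM in the other 6. BXD replicate 1 also had the highest sum of 10 immediate early genes, a list chosen after the data were seen, at 3612 CPM against 689 to 1339 CPM elsewhere. Of the other marker lists, in model against control edgeR called 1 lymphatic endothelial gene higher (Lyve1) and 1 lower (Prox1), 1 blood endothelial gene higher and 2 lower, 6 smooth muscle and 2 fibroblast genes lower, and 4 macrophage and 4 neutrophil genes higher. In BXD against control it called 2 lymphatic endothelial, 2 smooth muscle, 1 macrophage, 4 neutrophil and 9 striated muscle genes higher, and 1 blood endothelial gene in each direction. It called 0 genes of exocrine pancreas or lymphocytes in either comparison, where 1 lymphocyte gene was lower in BXD at an unadjusted p under 0.05, and 0 of the gastric mucosa genes passed the filter for testing. Over all genes tested, 21.6% were called higher and 20.6% lower for model, and 16.1% and 14.3% for BXD. In such bulk tissue, fewer cells of a type and less RNA per cell cannot be told apart.

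**Figure D1:**
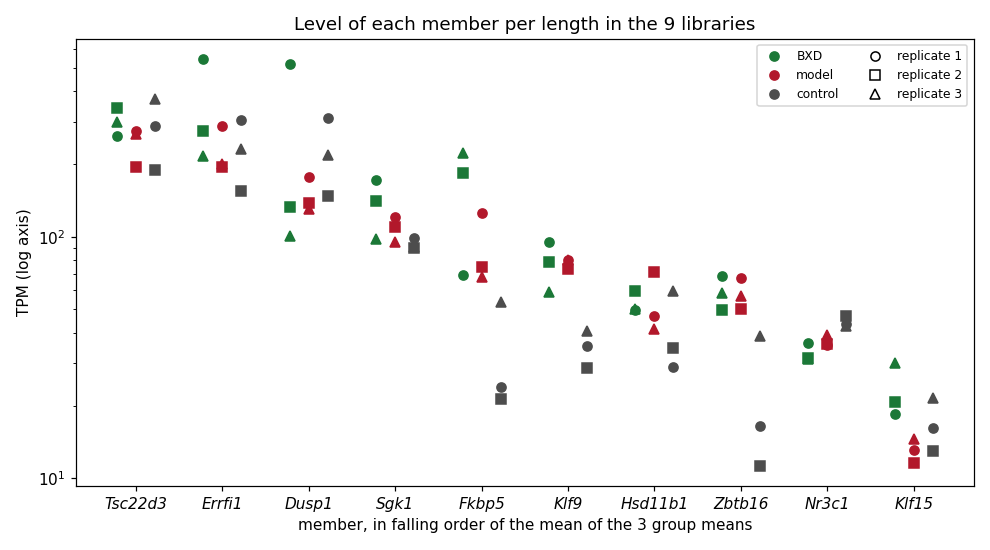
TPM (transcripts scaled for length and library) of each member on a log axis, in falling order of level, with BXD, model and control from left to right within each gene and 1 point per library. Tsc22d3 was between 189.8 and 372 TPM and Klf15 between 11.6 and 30.0 TPM, while Fkbp5 spanned 21.3 to 221 TPM.

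Scaled for gene length, the members spanned more than an order of magnitude. On the TPM scale the order of mean level was Tsc22d3, Errfi1, Dusp1, Sgk1, Fkbp5, Klf9, Hsd11b1, Zbtb16, Nr3c1 and Klf15, with medians over the 9 libraries of 274 TPM for Tsc22d3 and 16.1 TPM for Klf15. Neighbours in this order overlapped in their ranges over the libraries in 8 of 9 cases, and only Nr3c1 lay wholly above its lower neighbour Klf15. Errfi1 (155 to 543 TPM) and Dusp1 (101 to 520.3 TPM) owed their highest values to BXD replicate 1. The receptor itself was among the lower members, at 31.1 to 46.8 TPM.

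**Figure D2:**
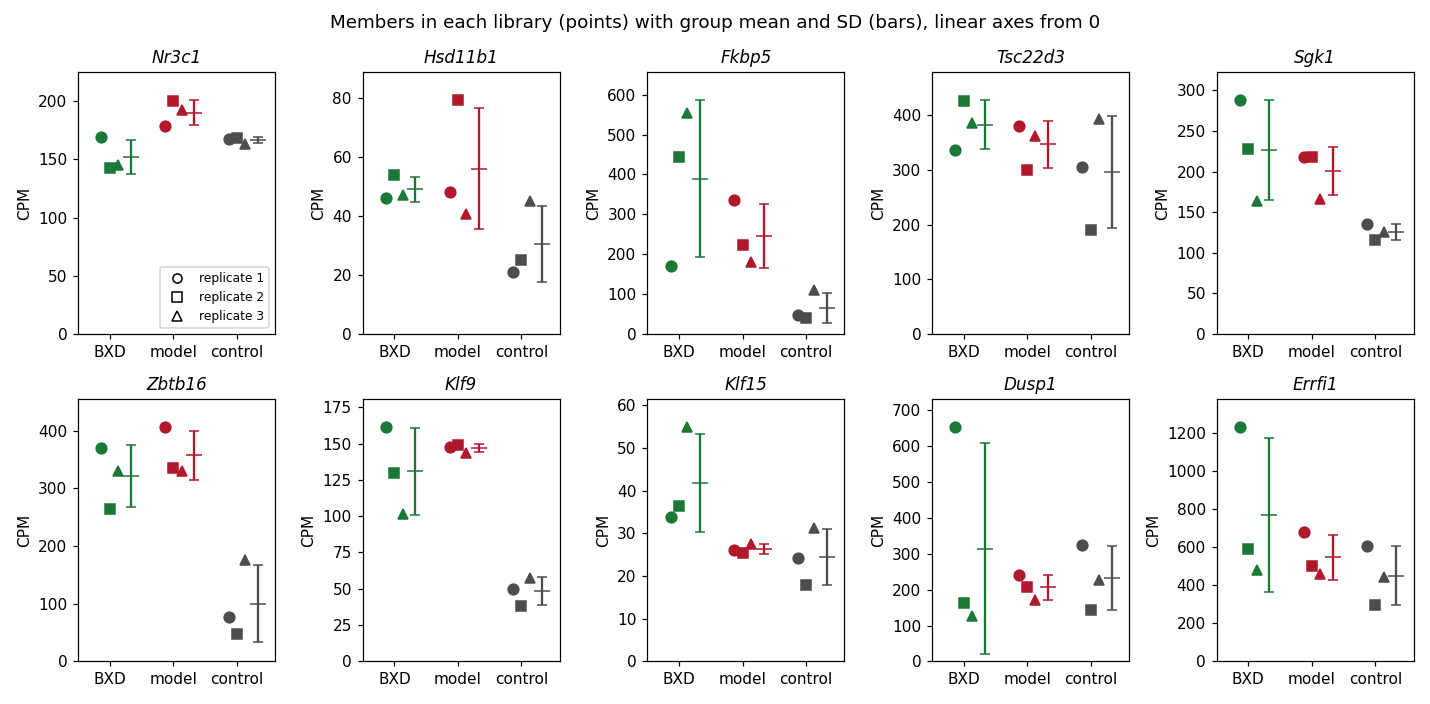
CPM of each member in every library, with BXD, model and control from left to right; point shapes give the replicate number and bars the group mean and SD. The 6 stressed libraries lie above all 3 control libraries for Fkbp5, Sgk1, Zbtb16 and Klf9, while those of Tsc22d3, Dusp1 and Errfi1 overlap with control.

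Some of the receptor's targets were higher after water stress and others were not called. Against control, edgeR's quasi-likelihood test called 5 of 10 members higher in model (adjusted p under 0.05) and 0 lower, and 5 of 10 higher in BXD and 0 lower. Over all genes tested, 42.2% were called in either direction for model (21.6% higher and 20.6% lower) and 30.3% for BXD, 16.1% higher and 14.3% lower. A count of 5 of 10 in either direction is thus close to the share of all genes for model, and all 5 called members were higher. In CPM, groups did not overlap for 5 members in model, all higher, and for 6 in BXD, all higher, where 28.9% and 23.8% of all genes lay wholly above control. The 5 include Nr3c1, whose order was reversed in TPM. At an unadjusted p under 0.05, 5 members were higher and 0 lower in each comparison, against 51.5% of all genes in either direction for model and 42.7% for BXD. DESeq2 and limma-voom also called 5 higher and 0 lower in each, where DESeq2 called 46.2% of all genes for model and 35.5% for BXD, and limma-voom 41.7% and 30.4%. The median log2 fold change of the members was 0.48 for model and 0.77 for BXD, against -0.01 and -0.02 over all genes. Both comparisons use the same control libraries and are not independent of each other. Scaling by library size alone shifted all genes down together, to a median of -0.28 for model and -0.23 for BXD, with 1619 genes called higher and 4910 lower for model and 1370 and 3602 for BXD, and every count given under that scaling carries this shift.

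The receptor gene Nr3c1 moved little in CPM. BXD replicates 1 to 3 stood at 169, 142 and 145 CPM, model replicates at 179, 199.8 and 192 CPM, and control replicates at 167, 169 and 163 CPM. In CPM all 3 model libraries were above all 3 control libraries and all 3 BXD libraries. The log2 fold change was 0.19 for model against control (SE 0.10, adjusted p = 0.142 in edgeR) and -0.13 for BXD against control (SE 0.10, adjusted p = 0.346), neither of them called. With library size alone the value for model was -0.08, where the median of all genes was -0.28. Relative to the median of all genes, Nr3c1 lay at 0.14 to 0.21 for model and at -0.15 to -0.11 for BXD under the scalings compared. The BXD value passed the threshold as lower in 4 of 21 alternative fits, those with library size alone or FPKM, at -0.35 to -0.33. On the TPM scale the order of model and control was reversed, with a mean of 37.0 ± 2.00 in model and 44.3 ± 2.23 in control. All model libraries (35.57 to 39.28 TPM) lay below all control libraries (42.65 to 46.85 TPM). They overlapped with BXD (31.12 to 36.37 TPM). Its entry in the authors' table (gene 24413) spans chromosome 18, 31727301 to 32704022 on Rnor_6.0, an interval that also holds Fgf1, Spry4, Mcc and Arhgap26, and no strand-specific kit is named, so reads shared with these genes are possible.

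Hsd11b1 encodes the enzyme that turns inactive 11-dehydrocorticosterone back into corticosterone within cells. It stood at 46.3, 54.1 and 47.3 CPM in BXD, at 48.2, 79.5 and 40.9 CPM in model, and at 21.1, 25.2 and 45.1 CPM in control. Control replicate 3 overlapped with model but not with BXD. Model against control was called higher, at 0.88 on the log2 scale (SE 0.31, adjusted p = 0.0464 in edgeR), and BXD against control was not, at 0.69 (SE 0.31, adjusted p = 0.121). That call is fragile: it was lost in 15 of 21 alternative fits, and without model replicate 2, which also had the highest adipocyte sum, the value was 0.55 (adjusted p = 0.177). Fat cells are a known site of this enzyme, and the part of adipocyte RNA in its level was not tested.

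As a ratio of the highest to the lowest library, Fkbp5 showed the widest range of the 10 members, while Errfi1 and Dusp1 spanned more CPM. The encoded co-chaperone lowers the receptor's affinity for hormone and is itself induced by the receptor, which closes a feedback loop. It stood at 171, 445 and 553 CPM in BXD, at 335, 223 and 180.4 CPM in model and at 48.6, 40.8 and 109 CPM in control. Every stressed library exceeded every control library, yet BXD replicate 1 was the lowest of the stressed libraries and control replicate 3 the highest of the controls. Fkbp5 was 3.72-fold higher in model (log2 fold change 1.89, SE 0.50, adjusted p = 0.0154 in edgeR) and 5.88-fold higher in BXD (log2 fold change 2.56, SE 0.51, adjusted p = 0.00681) than in control. Without control replicate 1 or 2 the model call was missed, at adjusted p of 0.058 and 0.0539, and without control replicate 3 the log2 fold changes were 2.44 for model and 3.12 for BXD.

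Zbtb16 and Klf9 are transcription factors that the receptor induces in many tissues, Zbtb16 (also called PLZF) a zinc finger repressor and Klf9 a Krüppel-like factor. Zbtb16 stood at 370.3, 265 and 330.4 CPM in BXD, at 406, 335 and 330.0 CPM in model and at 77.0, 47.8 and 176 CPM in control. The log2 fold change was 1.83 for model (SE 0.40, adjusted p = 0.00707 in edgeR) and 1.68 for BXD (SE 0.40, adjusted p = 0.0134), and the stressed and control libraries did not overlap. Without control replicate 3, the highest control library for Zbtb16, the values were 2.50 and 2.36, and without control replicate 1 the BXD call was missed at an adjusted p of 0.0529.

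Klf9 had a small spread within the model and control groups. It stood at 161, 130.0 and 101 CPM in BXD, at 148, 149 and 144 CPM in model, and at 50.0, 38.0 and 57.1 CPM in control. The groups were clearly apart, with a mean of 147 ± 2.65 CPM in the model group, with 48.4 ± 9.67 CPM in controls. On the log2 scale the difference was 1.60 for model (SE 0.19, adjusted p = 0.000638 in edgeR) and 1.44 for BXD (SE 0.19, adjusted p = 0.00133). Klf9 was called higher under all 21 alternative fits in both comparisons. Klf9 also follows the daily clock in many tissues, and of 17 clock genes 8 were called higher and 0 lower in model (4 and 2 with library size alone), and 5 higher and 0 lower in BXD (5 and 1), with Ciart, a clock repressor, at 9.96 ± 3.85 CPM in the model group, with 0.505 ± 0.185 CPM in controls. Nr1d2 and Cry2, also clock repressors, were 3.73-fold and 3.36-fold higher in model. Of the 17 clock genes 47.1% were called higher in model and 29.4% in BXD, against 21.6% and 16.1% of all genes called higher. In either direction the shares of the list were the same, against 42.2% and 30.3% of all genes. The labels give no hour of collection, and the part of the hour was not tested.

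Sgk1 is a kinase that promotes sodium uptake and cell survival and responds to both glucocorticoids and mineralocorticoids. It stood at 287, 227 and 164 CPM in BXD, at 218, 218 and 166 CPM in model, and at 136, 116 and 125 CPM in control. All stressed libraries lay above all controls, by a smaller step than for Fkbp5, Zbtb16 or Klf9. On the log2 scale the difference was 0.68 for model (SE 0.20, adjusted p = 0.023 in edgeR) and 0.85 for BXD (SE 0.20, adjusted p = 0.0124). The model call was lost in 8 of 21 alternative fits, among them library size alone, while the BXD call was kept in all 21.

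Klf15, a Krüppel-like factor of amino acid and lipid metabolism in muscle, liver and fat, was called higher in BXD than in control. It stood at 33.8, 36.4 and 54.9 CPM in BXD, at 26.0, 25.4 and 27.6 CPM in model, and at 24.1, 18.0 and 31.3 CPM in control. BXD libraries lay above all others, and model overlapped with control. On the log2 scale the difference was 0.77 for BXD against control (SE 0.23, adjusted p = 0.0316 in edgeR) and 0.11 for model against control (SE 0.23, adjusted p = 0.727). The call was lost in 10 of 21 alternative fits. Klf15 is abundant in striated muscle, whose markers summed to 7381, 71.4 and 3940 CPM in BXD replicates 1 to 3. In the same replicates Klf15 stood at 33.8, 36.4 and 54.9 CPM, and the part of muscle in its level was not tested.

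The other 3 targets were not called in either comparison. Tsc22d3, which encodes the anti-inflammatory leucine zipper protein GILZ, stood at 337, 427 and 386 CPM in BXD, at 381, 299 and 362 CPM in model, and at 306, 190.2 and 394 CPM in control. Control replicate 3 reached the level of the stressed libraries and control replicate 2 lay below all others. The log2 fold change was 0.23 for model (95% interval -0.30 to 0.76, adjusted p = 0.453 in edgeR) and 0.37 for BXD (95% interval -0.16 to 0.90, adjusted p = 0.259).

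Dusp1, a phosphatase that switches off MAP kinases, and Errfi1, an inhibitor of the epidermal growth factor receptor, both had a single library far above the rest. Dusp1 stood at 653, 162 and 127 CPM in BXD, at 240.3, 207 and 172 CPM in model, and at 324, 145 and 227 CPM in control. Errfi1 stood at 1231, 593 and 480.3 CPM in BXD, at 681, 501 and 458 CPM in model, and at 607, 296 and 445 CPM in control. For both genes that library was BXD replicate 1, and the remaining libraries overlapped between stressed and control rats. Without it Errfi1 also overlapped between BXD and model, whereas the other BXD libraries of Dusp1 (162 and 127 CPM) lay below all 3 model libraries. For model against control, the log2 fold change was -0.17 for Dusp1 (95% interval -1.44 to 1.11, adjusted p = 0.828 in edgeR) and 0.28 for Errfi1 (95% interval -0.55 to 1.11, adjusted p = 0.559). For BXD against control it was 0.44 for Dusp1 (SE 0.57, adjusted p = 0.59) and 0.77 for Errfi1 (SE 0.37, adjusted p = 0.143), and without BXD replicate 1 these values were -0.68 (adjusted p = 0.137) and 0.26 (adjusted p = 0.545).

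**Figure D3:**
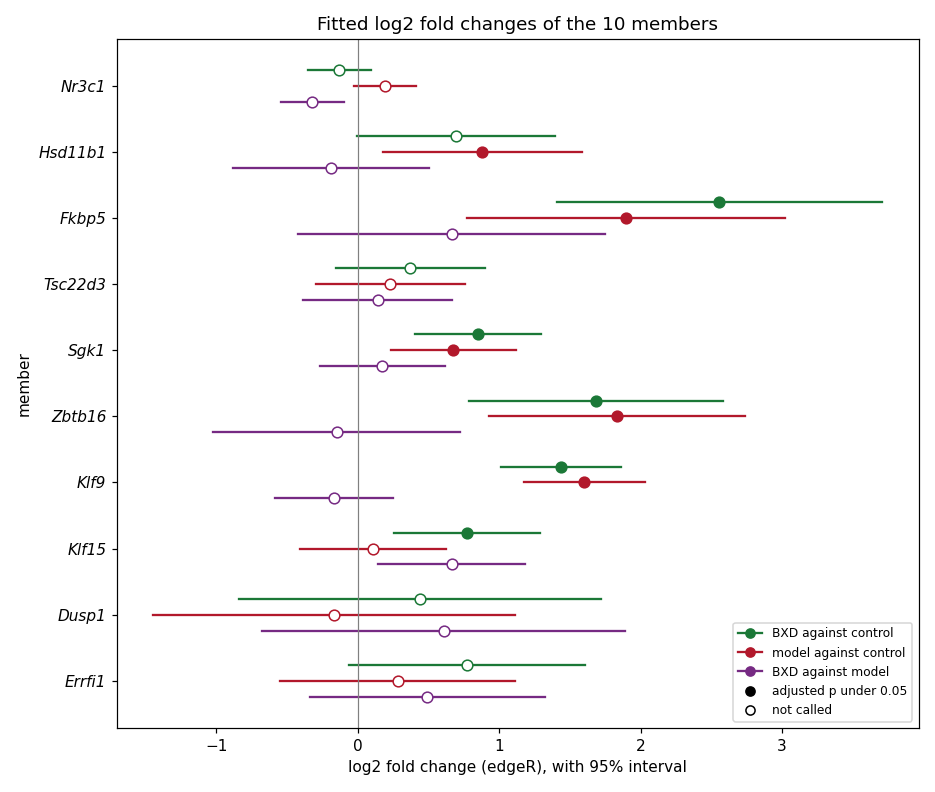
Log2 fold changes of the 10 members with 95% intervals, for BXD against control, model against control and BXD against model; filled points passed an adjusted p of 0.05. Fkbp5, Sgk1, Zbtb16 and Klf9 are filled in both comparisons with control, Hsd11b1 for model and Klf15 for BXD, and all points for BXD against model are open.

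Between the BXD and model groups edgeR told no member apart. It called 0 of 10 members between BXD and model, and 0.0615% of all genes. At an unadjusted p under 0.05, 1 member was higher (Klf15) and 1 lower (Nr3c1), against 20.9% of all genes in either direction. DESeq2 called 1 member, Nr3c1, as lower (adjusted p = 0.0398), where it called 7.57% of all genes, and limma-voom called 0 members and 0.0205% of all genes. Klf15 and Nr3c1 were also the members whose groups did not overlap in CPM. Nr3c1 averaged 152 ± 14.6 CPM in BXD, with 190.2 ± 10.8 CPM in the model group, and Klf15 41.7 ± 11.5 CPM in BXD, with 26.3 ± 1.10 CPM in the model group. Of all genes, 22.4% had groups that did not overlap between BXD and model, so 2 of 10 is near that share. In edgeR the log2 fold change was -0.32 for Nr3c1 (95% interval -0.54 to -0.10, adjusted p = 0.135) and 0.66 for Klf15 (95% interval 0.15 to 1.18, adjusted p = 0.162). The authors' deposited table gives a q-value of 0.214 for Nr3c1 and 0.101 for Klf15 in this comparison.

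Intervals between BXD and model were wide for the members called higher than control in both stressed groups. They ran from -0.43 to 1.75 for Fkbp5, from -1.02 to 0.72 for Zbtb16, from -0.58 to 0.25 for Klf9 and from -0.27 to 0.61 for Sgk1, all on the log2 scale. The narrowest of these was that of Klf9 and the widest that of Fkbp5. Without BXD replicate 1 the value for Fkbp5 was 1.02 (adjusted p = 0.193) in place of 0.66 (adjusted p = 0.462), and that for Dusp1 was -0.51 (adjusted p = 0.343) in place of 0.61 (adjusted p = 0.576).

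**Figure D4:**
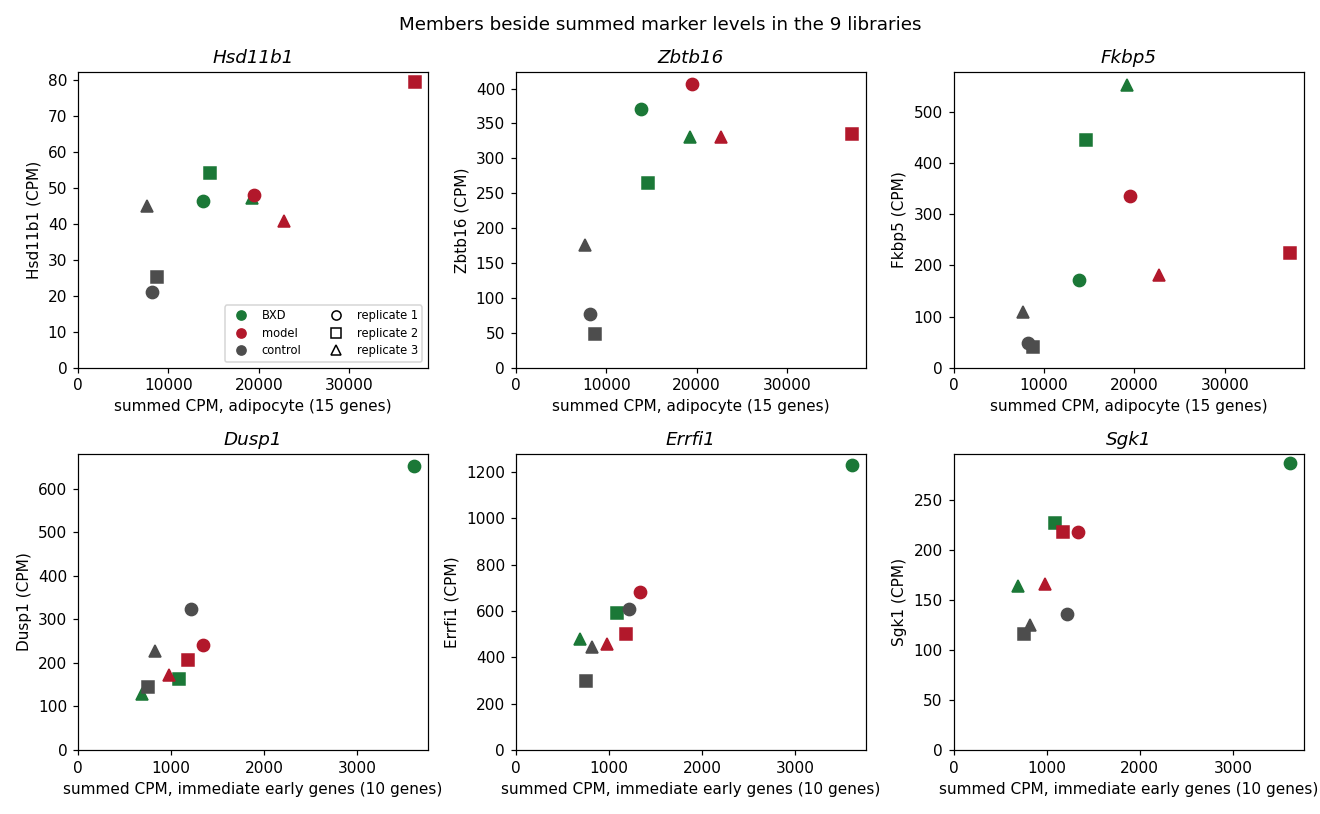
Members (CPM) against summed CPM of adipocyte markers (upper row) and immediate early genes (lower row), 1 point per library coloured by group and shaped by replicate. BXD replicate 1, at 3612 CPM of immediate early genes, has the highest Dusp1, Errfi1 and Sgk1, and model replicate 2, at 37201 CPM of adipocyte genes, has the highest Hsd11b1.

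Members and marker genes of the libraries that stood apart can be read side by side. In BXD replicate 1 the immediate early gene Nr4a1, a nuclear receptor, was at 821 CPM, while BXD replicates 2 and 3 had 111 and 66.0 CPM, with 149 to 189 CPM in model. Dusp1, Errfi1, Sgk1 and Klf9 were highest in that same library, and Fkbp5 was lowest there among the stressed libraries. Adipocyte sums did not overlap between model and control, nor between BXD and control. Model replicate 2 had the highest adipocyte sum of all libraries, 37201 CPM, and the highest Hsd11b1, 79.5 CPM, with 335 CPM of Zbtb16 and 223 CPM of Fkbp5. Among the controls, replicate 3 had the lowest adipocyte sum, 7638 CPM, and the highest Fkbp5, Zbtb16, Klf9, Hsd11b1, Tsc22d3 and Klf15. The part of adipocytes or muscle in the members' differences between groups was not tested.

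Genes whose pattern was most like that of 2 members were sought by Pearson correlation of log2 CPM over the 9 libraries, among 12962 genes averaging 1 CPM or more, as a description that the difference between stressed and control libraries can carry. Nearest to Fkbp5 were Gpr146 (r = 0.98), an orphan receptor, Gda (r = 0.97), guanine deaminase, and Rbm18 (r = 0.97), an RNA-binding protein. Among the members, Zbtb16 was the nearest to Fkbp5 (r = 0.86) and Nr3c1 the farthest (r = -0.27). Nearest to Tsc22d3 were Zcchc9 (r = 0.93), Zhx3 (r = 0.90) and Hipk1 (r = 0.89), a nuclear kinase. Their levels spanned narrow ranges, for Hipk1 242 to 264 CPM in BXD, 230.0 to 263 CPM in model and 202 to 245 CPM in control.

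**Figure D5:**
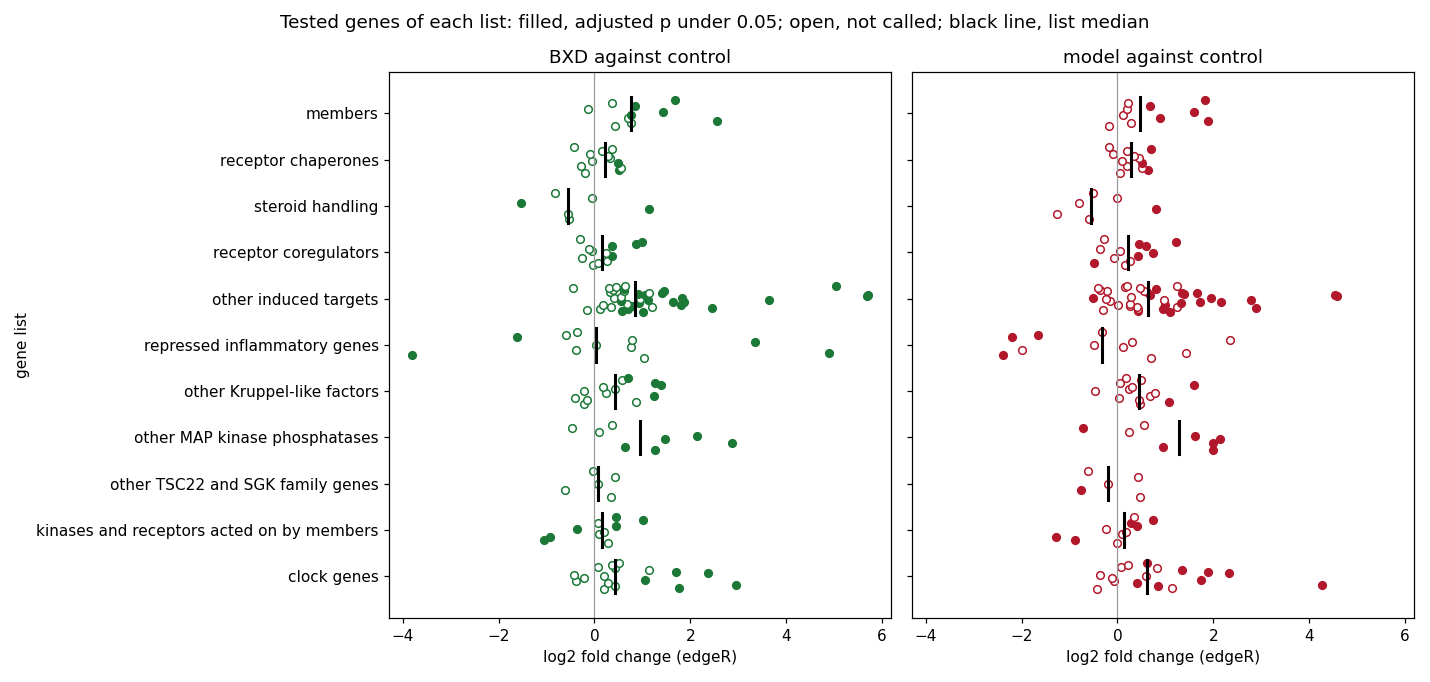
Log2 fold changes of the tested genes of each list for BXD against control (left) and model against control (right); filled points passed an adjusted p of 0.05 and black lines are list medians. The medians of other induced targets are 0.85 in the BXD panel and 0.64 in the model panel, and Ptgs2, Ccl5 and Sele lie to the left in the model panel.

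Of other genes that glucocorticoids are known to induce, some were called higher in model and about as many were not called. Of 39 listed, 38 were tested, and edgeR called 18 higher (47.4%, against 21.6% of all genes) and 1 lower, and did not call 19, with a median log2 fold change of 0.64 over the tested genes. In either direction 50% were called, against 42.2% of all genes. With library size alone, a scaling that moved the median of all genes to -0.28, the counts were 12 higher and 2 lower. Cdkn1a, a cell cycle inhibitor, stood at 461 ± 92.5 CPM in the model group, with 62.0 ± 22.9 CPM in controls. The metallothionein Mt1, which binds metal ions, stood at 482 ± 131 CPM in the model group, with 20.1 ± 5.25 CPM in controls, and its close copy Mt2A at 439 ± 129 CPM and 18.7 ± 5.97 CPM. Reads of that pair could be divided between them. Maoa, a monoamine oxidase, was the gene called lower, at 67.3 ± 5.56 CPM in the model group, with 95.1 ± 18.5 CPM in controls. Per1, a clock gene that the receptor also induces, was called higher in model at 1.35 (log2, SE 0.46, adjusted p = 0.0416 in edgeR).

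In BXD 21 of the 38 were called higher than in control and 0 lower, at a median log2 fold change of 0.85, and 28 higher and 0 lower at an unadjusted p under 0.05. The 21 are 55.3% of the 38, against 16.1% of all genes called higher by edgeR and 30.3% called in either direction. DESeq2 called 26 higher and limma-voom 19, and both 0 lower. Over all genes 42.7% passed the unadjusted p, and DESeq2 called 35.5% and limma-voom 30.4%, in either direction. Mt1 and Mt2A stood at 1044 ± 336 CPM and 978 ± 241 CPM in BXD, 51.9-fold and 52.1-fold above control. Trim63, a ubiquitin ligase of striated muscle chosen for mention after its values were seen, was called higher in BXD (log2 fold change 5.04, SE 1.18, adjusted p = 0.0132 in edgeR). It stood at 79.0, 2.67 and 34.6 CPM in BXD and 0.909 to 1.33 CPM in control, high in the libraries with high striated muscle sums. Between BXD and model edgeR called 0 of the 38, with 10 higher and 0 lower at an unadjusted p under 0.05, DESeq2 called 6 higher (Gpx3, Maoa, Mt1, Mt2A, Rgs2 and Trim63) and limma-voom called 0. Here edgeR called 0.0615% of all genes in either direction, and 20.9% passed the unadjusted p. DESeq2 called 7.57% of all genes and limma-voom 0.0205%.

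Genes that glucocorticoids restrain in inflammation were often too low to test, and 11 of 18 were tested. In model 3 were called lower and 0 higher by edgeR and by limma-voom, with 4 lower and 1 higher at an unadjusted p under 0.05 in edgeR, and DESeq2 called 4 lower and 1 higher. The 3 calls of edgeR are 27.3% of the tested list, against 20.6% of all genes called lower and 42.2% in either direction. Over all genes 51.5% passed the unadjusted p, and DESeq2 called 46.2% and limma-voom 41.7%, in either direction. Ptgs2, the inducible cyclooxygenase, stood at 3.24 ± 1.16 CPM in the model group, with 15.1 ± 5.59 CPM in controls, the chemokine Ccl5 at 3.49 ± 1.71 CPM and 18.3 ± 9.71 CPM, and the endothelial selectin Sele at 2.10 ± 1.41 CPM and 6.69 ± 3.05 CPM. In BXD 2 were called lower, Ccl5 and Ptgs2, and 2 higher, the cytokine Il6 and the chemokine Cxcl1. Called in either direction by edgeR were thus 36.4% of the tested list, against 30.3% of all genes. Limma-voom called 0 higher and 2 lower here, and DESeq2 called 3 higher (Cxcl1, Icam1 and Il6) and 2 lower, where they called 30.4% and 35.5% of all genes. The calls of Il6 and Cxcl1 as higher leaned on BXD replicate 1, where Il6 was at 26.4 CPM and Cxcl1 at 174 CPM, while BXD replicates 2 and 3 had 3.77 and 1.21 CPM of Il6 and 31.9 and 4.53 CPM of Cxcl1. Without BXD replicate 1 the list gave 1 higher and 2 lower.

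Of 12 chaperones and co-chaperones of the receptor complex, edgeR called 3 higher and 0 lower in model, where library size alone gave 2 and 2. A share of 25% called higher is near the 21.6% of all genes. Hsp90aa1, the inducible heat shock protein 90 that holds the receptor ready for hormone, stood at 496 ± 45.7 CPM in the model group, with 348 ± 47.8 CPM in controls, and St13 and Bag1 were 1.63-fold and 1.56-fold higher. Fkbp4, the co-chaperone that competes with Fkbp5 for the receptor, was named after its values were seen and stood at 148 ± 25.1 CPM in the model group, with 129 ± 27.5 CPM in controls (adjusted p = 0.367 in edgeR). In BXD 2 chaperones were called higher and 0 lower, where library size alone gave 0 and 4 under a shift of all genes to a median of -0.23. The 2 are 16.7% of the list, near the 16.1% of all genes called higher.

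Among 7 genes of steroid handling, of which 6 were tested, H6pd was called higher in both stressed groups. H6pd supplies the NADPH that lets the Hsd11b1 enzyme run in the reductive, hormone-making direction. It stood at 131 ± 6.02 CPM in BXD, 104 ± 16.8 CPM in the model group, with 59.7 ± 4.45 CPM in controls. The log2 fold change was 0.81 for model (SE 0.13, adjusted p = 0.00185 in edgeR) and 1.14 for BXD (SE 0.13, adjusted p = 0.000875). Hsd11b2, the enzyme that inactivates corticosterone, was chosen for mention after its values were seen and was low, at 1.92, 1.73 and 1.59 CPM in BXD, 2.89, 2.78 and 2.96 CPM in model, and 7.53, 3.12 and 4.56 CPM in control. It was called lower in BXD (log2 fold change -1.53, SE 0.33, adjusted p = 0.00910) and not in model (-0.81, SE 0.32, adjusted p = 0.0675). Nr3c2, the mineralocorticoid receptor, which corticosterone also binds, stood at 19.5 ± 7.01 CPM in BXD, 20.02 ± 3.30 CPM in the model group, with 20.04 ± 2.69 CPM in controls.

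Of 12 coregulators that the receptor recruits, 5 were called higher and 1 lower in model, where library size alone gave 3 and 4. These 6 of 12 are near the 42.2% of all genes called in either direction. The 5 called higher are 41.7% of the list, against 21.6% of all genes. Nrip1, a corepressor of nuclear receptors that fat cells also use, stood at 107 ± 5.36 CPM in the model group, with 45.9 ± 2.82 CPM in controls (1.23 on the log2 scale, SE 0.22, adjusted p = 0.00328 in edgeR). Ncor1, another corepressor, and Ncoa1, a coactivator, were 1.52-fold and 1.66-fold higher, and the acetyltransferase Crebbp was called lower at -0.49 (log2, SE 0.16, adjusted p = 0.0393). In BXD 4 were called higher and 0 lower, and 2 and 2 with library size alone. The 4 are 33.3% of the list, against 16.1% of all genes called higher and 30.3% in either direction.

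Relatives of the members were counted the same way. Over all genes edgeR called 42.2% in either direction for model (21.6% higher and 20.6% lower) and 30.3% for BXD. Of 8 other MAP kinase phosphatases tested, edgeR called 5 higher and 1 lower in model and 5 higher and 0 lower in BXD, while Dusp1 was called in neither. Dusp10 stood at 49.8 ± 11.9 CPM in the model group, with 12.5 ± 1.96 CPM in controls (2.00 on the log2 scale, SE 0.21, adjusted p = 0.000423), and Dusp4 and Dusp16 were 4.44-fold and 1.92-fold higher. Dusp7 was called lower at -0.71 (SE 0.25, adjusted p = 0.0468). The difference between Dusp1 and these genes was not tested. Of the 8 phosphatases 75% were called in model and 62.5% in BXD. Of 13 other Krüppel-like factors tested, 2 were called higher in model and 0 lower, against 1 and 1 with library size alone, with Klf4, a factor of epithelium and endothelium, at 366 ± 43.1 CPM in the model group, with 120.1 ± 24.6 CPM in controls, and Klf10 2.11-fold higher. In BXD 4 were called higher and 0 lower, and 1 and 1 without BXD replicate 1. Of the 13 factors 15.4% were called higher in model, under the share of all genes. In BXD 30.8% were called higher, against 16.1% of all genes called higher and 30.3% in either direction. Of 5 other TSC22 and SGK family genes, Sgk3 was called lower in model (log2 fold change -0.76, SE 0.24, adjusted p = 0.0316) and 0 were called in BXD by edgeR, DESeq2 or limma-voom, with 1 lower at an unadjusted p under 0.05 in edgeR. For model 1 of 5 is 20%, near the 20.6% of all genes called lower.

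Of 10 tested kinases and receptors on which the members act, 3 were called higher and 2 lower in model, against 1 and 3 with library size alone, and 5 of 10 is near the 42.2% of all genes called. Erbb3 and Erbb2, relatives of the receptor that Errfi1 inhibits, were called lower, at log2 fold changes of -1.28 (SE 0.23) and -0.89 (SE 0.24). Ndrg1, a substrate of the Sgk1 kinase, stood at 392 ± 48.2 CPM in BXD, 328 ± 32.1 CPM in the model group, with 195 ± 26.4 CPM in controls, and was called higher in both stressed groups (adjusted p = 0.00349 for model and 0.00154 for BXD in edgeR). Mapk8 and Mapk9, stress kinases that Dusp1 can switch off, were 1.33-fold and 1.22-fold higher in model. In BXD 3 genes of this list were called higher and 3 lower, against 1 and 3 with library size alone. Together they are 60% of the tested list, against 30.3% of all genes called in either direction.

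Median log2 fold changes for model against control were 1.28 for the MAP kinase phosphatases, 0.63 for the clock genes, 0.46 for the Krüppel-like factors, 0.27 for the chaperones, 0.22 for the coregulators, 0.13 for the kinases and receptors, -0.19 for the TSC22 and SGK family, -0.31 for the restrained inflammatory genes and -0.55 for steroid handling. In BXD against control the medians in that order were 0.95, 0.44, 0.44, 0.23, 0.16, 0.15, 0.064, 0.033 and -0.55. Over all genes tested they were -0.01 for model and -0.02 for BXD.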

How the data were processed

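Libraries from 9 samples were made from poly(A)-selected RNA, per the labels' protocols. HISAT2 2.2.4, Bowtie2 2.2.5 and the rat build Rnor_6.0 are listed, per the submitters' processing notes. For the counting tool and annotation, neither is given in the sources used here. The authors deposited estimated counts, FPKM and TPM per gene, per the file headers, and 88.8% of the counts were whole within 1e-09. The authors also deposited log2 fold changes and q-values (p-values adjusted in DESeq2, per the file headers). A further 45 columns of per-sample values were not used here.

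Counts were rounded, filtered with filterByExpr to 14643 genes, and scaled by trimmed means of M-values (factors 0.873 to 1.15). The quasi-likelihood fit of edgeR 4.0.16 (robust, under R 4.3.3) used all 9 libraries with group as the only term. P-values were adjusted by Benjamini-Hochberg over all genes, and under 0.05 a gene is said to be called. The fit was also run on simulated data with the same spread setting for every gene. That run cannot show how the fit handles genes or libraries with a larger spread. CPM uses the scaled library sizes. DESeq2 1.42.0, limma 3.58.1 (voom, and log2 of FPKM with a pseudocount of 1 or 0.1), other scalings and filters, and leaving out each library were alternatives. Replicates of a group differed beyond sampling noise (chi-square over its degrees of freedom 13.5 to 49.3), so none was taken as a repeat. A floor of 3 counts is 0.223 to 0.244 CPM and covers counting error only. Chromosomes were read from cytogenetic bands in the table.

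The members and lists were chosen with earlier results of these data known. All 10 members are named. From each pathway list, up to 3 called genes per direction with the smallest p in model against control are named, or the gene with the smallest p. Genes named beyond this rule (Per1, Trim63, Gpx3, Rgs2, Il6, Cxcl1, Icam1, Fkbp4, Hsd11b2, Nr3c2, Nr4a1, Lyve1 and Prox1) were chosen after their values were seen. Marker lists covered adipocytes, lymphatic and blood endothelium, smooth muscle, fibroblasts, macrophages, neutrophils, lymphocytes, striated muscle, gastric mucosa and exocrine pancreas.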

Additional observations from a re-analysis of the deposited data

How the results depend on the processing

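Against 5 in edgeR, 3 members were called for model against control with library size alone and with each form of FPKM (pseudocount 1, pseudocount 0.1, no filter), and 2 to 5 when 1 library was left out, the fewest without control replicate 2. For BXD against control 5 were called, and 3 to 6 when 1 library was left out, the fewest without control replicate 1. With library size alone or FPKM, 1 of those 5 was Nr3c1, lower. Of all 14643 genes, library size alone called 1619 higher and 4910 lower for model, and FPKM with pseudocount 1 called 1617 and 4893. For BXD these were 1370 and 3602, and 1268 and 3725. Without control replicate 2, 2130 of 14815 genes were called higher and 2187 lower for model. Without control replicate 1, 1505 of 14916 were called higher and 1347 lower for BXD. For BXD against model 0 were called, 1 (Nr3c1) with DESeq2, and 0 when any library was left out. Here edgeR called 0.0615% of all genes and DESeq2 7.57%.

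Over all members, comparisons and alternatives, 566 log2 fold changes kept direction and side of the threshold, 36 fell short of it, 7 newly passed it and 21 changed sign, all of the last among values that were not called. The cause was not tested. In model against control Klf15 was -0.018 under upper quartile scaling, -0.16 with library size alone, -0.15 with FPKM and pseudocount 1, with or without the filter, and -0.16 with pseudocount 0.1. Nr3c1 was -0.0791 when scaled by library size alone, -0.0791 for FPKM at pseudocount 1 (also without the filter) and -0.0816 at pseudocount 0.1, and Tsc22d3 was -0.0302 with library size alone. In BXD against control Dusp1 was -0.0900 with FPKM and pseudocount 1, with or without the filter, and -0.0921 with pseudocount 0.1. When 1 library was left out, model against control ran from -0.0228 to 0.47 for Tsc22d3, from -0.0852 to 0.31 for Klf15 and from -0.43 to 0.14 for Dusp1, and BXD against control from -0.68 to 0.82 for Dusp1. BXD against model ran from -0.38 to 0.14 for Hsd11b1, from -0.0371 to 0.36 for Sgk1, from -0.51 to 0.98 for Dusp1 and from -0.0280 to 0.74 for Errfi1. The median of all genes for model against control was -0.01 in edgeR, -0.14 under the upper quartile and -0.28 when scaled by library size alone.

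Same-numbered libraries did not deviate together (r of -0.431 to 0.0859), so the numbers give no pairing. With a replicate block, the calls numbered 4 in model against control, 6 in BXD against control and 0 in BXD against model. Each member had at least 277 counts in every library, so the intervals reflect the spread between 3 libraries a group more than depth.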
